A study of Mus musculus with 4 samples.

Results

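The genes described here encode the presynaptic vesicle release machinery, the proteins that hold, dock, fuse and recover synaptic vesicles. They are 33 named genes, fixed by name, and their measurements are the 46 non-control array probes whose RefSeq accession belongs to one of them. Those probes cover 32 of the 33 genes, out of 20887 genes that could be named by accession on the array. Syt5 was not matched. After a filter on dim probes, 31 genes with 45 probes remained, and Unc13a, the vesicle priming gene, was left out because its single probe was well above background in 1 of 4 APPswe/PS1dE9 cultures and 1 of 4 WT cultures.

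The cultures were differentiated neural precursor cells. Embryonic telencephalon of day 13 was dissociated, grown for 5 days as neurospheres with EGF and FGF2, and then plated on poly-L-lysine and laminin for 7 days without either factor. The 4 APPswe/PS1dE9 cultures came from C57BL/6 mice that carry the transgenes of a familial Alzheimer's disease model, a mutant amyloid precursor protein and a mutant presenilin 1, and the 4 WT cultures came from C57BL/6 mice without them. Each of 4 two-colour arrays paired an RNA of either genotype, with APPswe/PS1dE9 labelled with Cy3 on replicates 1 and 2 and the dyes exchanged on replicates 3 and 4. The design text calls the replicates biological, but no label says whether they came from separate embryos or litters. The sex marker genes described below differed between cultures of the same genotype, so neither genotype's cultures all came from 1 embryo. The p-values below cover the spread of these samples between arrays of the same dye orientation, part of which may be technical. They leave out disagreement between the 2 orientations, which the fit puts into a dye term.

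When an action potential opens calcium channels, calcium binds synaptotagmin on the vesicle, and the SNARE proteins of vesicle and plasma membrane, held ready by complexins, zip together and fuse the membranes. Active zone proteins tether and prime vesicles near the channels, synapsins and Rab3 proteins hold them in reserve or guide them to the membrane, and dynamin and synaptojanin recover the membrane afterwards. In the developing telencephalon these genes are switched on as neurons mature, and several are held off in non-neuronal cells by the repressor REST, which binds an element called RE1.

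Per channel, 47.5% to 59.6% of the 59305 spots with probes exceeded background, and saturation did not occur. All 32 measured pan-neuronal genes were well above background in all 8 cultures, Tubb3, Map2 and Rbfox3 among them, as were 30 of the 31 release genes. The sex marker genes did not pair evenly. On replicate 1 the RNA of Eif2s3y, a Y-linked gene, was above background in the APPswe/PS1dE9 culture alone and that of Xist in the WT culture alone, and on replicate 3 the pattern was the opposite. Replicates 2 and 4 had Xist in both cultures and Eif2s3y in neither, and are called the same-sex arrays. Prnp is named because its promoter drives the transgenes of the widely used line with this genotype name. The App probe stood at a log2 ratio of 0.12 ± 0.06 (adjusted p = 0.296) and the Prnp probe at 0.75 ± 0.20 (adjusted p = 0.0717), so neither passed.

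The stretches below are the 250 bases before the RefSeq start (build GRCm38.p6, gene strand) of 4 genes that were higher in the APPswe/PS1dE9 cultures, at the first of the starts listed for each gene, and of Syn1, a synapsin gene that did not pass. They are shown so that the upstream sequence of genes that passed can be read beside that of one that did not pass. Doc2b and Rph3a also passed and are not printed, and Doc2b has no window. Syn1 is a single example, and other genes that did not pass also have windows. Whether motifs differ between genes that passed and those that did not was not tested. Capitals mark letters matching one of 4 motifs searched on both strands, namely the cAMP response element TGACGTCA, the GC box GGGCGG, the EGR site GCGGGGGCG and the RE1 core of REST with up to 3 of its 15 fixed letters differing, and the GC box and EGR site can overlap.

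Syn2, chr6:115134652-115134901, plus strand: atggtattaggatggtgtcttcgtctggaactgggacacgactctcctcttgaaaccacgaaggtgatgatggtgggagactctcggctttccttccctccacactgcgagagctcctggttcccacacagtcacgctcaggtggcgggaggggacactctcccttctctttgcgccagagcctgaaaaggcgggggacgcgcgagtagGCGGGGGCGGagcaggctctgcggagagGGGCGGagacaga

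Syngr1, chr15:80091084-80091333, plus strand: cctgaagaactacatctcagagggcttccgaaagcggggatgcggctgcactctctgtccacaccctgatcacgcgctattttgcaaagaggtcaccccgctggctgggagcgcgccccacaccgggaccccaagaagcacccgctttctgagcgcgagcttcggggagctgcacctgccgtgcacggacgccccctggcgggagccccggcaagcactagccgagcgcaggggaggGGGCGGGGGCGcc

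Syt1, chr10:109010976-109011225, minus strand: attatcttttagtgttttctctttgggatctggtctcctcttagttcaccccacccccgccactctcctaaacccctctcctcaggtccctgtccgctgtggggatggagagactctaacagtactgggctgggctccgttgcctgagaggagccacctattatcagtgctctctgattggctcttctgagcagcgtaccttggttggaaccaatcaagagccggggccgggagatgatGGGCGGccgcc

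Dnm1, chr2:32353330-32353579, minus strand: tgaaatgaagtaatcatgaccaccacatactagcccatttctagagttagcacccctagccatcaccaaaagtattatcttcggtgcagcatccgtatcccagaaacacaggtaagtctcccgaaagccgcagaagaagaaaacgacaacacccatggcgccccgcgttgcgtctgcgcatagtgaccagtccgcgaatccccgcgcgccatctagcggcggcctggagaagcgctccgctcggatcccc

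Syn1, chrX:20920919-20921168, minus strand: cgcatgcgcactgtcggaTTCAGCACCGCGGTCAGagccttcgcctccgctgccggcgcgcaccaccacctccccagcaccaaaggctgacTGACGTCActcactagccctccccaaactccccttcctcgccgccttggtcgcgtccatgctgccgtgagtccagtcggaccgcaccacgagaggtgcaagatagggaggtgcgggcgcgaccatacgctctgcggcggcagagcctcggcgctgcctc

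Of 26 release genes with a window in the RefSeq table, 35 windows in all, an EGR site was found in 2 genes, Syn2 and Syngr1, each overlapping a GC box, where 2.57% of all 32851 windows hold one. An RE1 core was found in 2 genes, where 0.925% of all windows hold one. Syn1 matched with 1 mismatch at a position starting 232 bases before its start, and Rph3a matched on the other strand with 2 mismatches, as CTGTCCGTGGTACTGAC, in its second window (chr5:121009539-121009788). The cAMP response element occurred in Syn1 alone, at 159 bases before the start, against 1.55% of all windows. GC boxes stood in 16 of the 35 windows, where 32.7% of all windows hold one, and the Dnm1 window held none of the 4 motifs. Syn2 and Syt1 each have a second window, not printed, which held none of the 4 either. The first window of Rph3a, also not printed, held none of the 4. With its cAMP response element and RE1 core, the Syn1 window is not typical of the release genes that did not pass.

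In the APPswe/PS1dE9 cultures 6 of the 31 release genes were higher than in WT and none was lower. They were Rph3a, a Rab3 effector on the vesicle, Syt1, the fast calcium sensor of release, Dnm1, the neuronal dynamin that pinches vesicles off the membrane, Doc2b, a high-affinity calcium sensor, Syngr1, a vesicle membrane protein, and Syn2, a synapsin. Their increases were small, between 1.26-fold for Syn2 and 1.38-fold for Rph3a. A gene was called where the limma fit of genotype and dye across all kept probes gave a Benjamini-Hochberg adjusted p under 0.05, and a gene with several probes is represented by its brightest. At an unadjusted p under 0.05, 13 release genes were higher and 1, Syt4, was lower. The share of all named genes past this unadjusted threshold was not counted, so unadjusted counts here and below have no background beside them. In a bulk culture, more cells of a type and more RNA per cell cannot be told apart, nor can fewer cells and less RNA per cell.

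The 6 genes are 19.4% of the 31, beside a background of 10.2% of 13669 named genes called higher and 2.16% called lower, 12.4% in all. Over single probes, 8 of the 45 release probes were higher, beside 6.89% of 26898 kept probes called higher and 1.9% called lower, 8.79% in all. The split of all calls depended on scaling, since 78.3% of them were higher after loess and 48.2% after median centring. The median log2 ratio of the release genes was 0.15, against 0.02 over all named genes, and 25 of the 31 fitted ratios were above 0. This depended on scaling, since under median centring the median of the release genes was -0.017 and 15 of the 31 were above 0, while all kept probes had a median of -0.07. Without replicate 3, and on the same-sex arrays, 20 of the 31 were above 0. On all 4 arrays 12 release genes were above 0 and 1 was below, where 21% of named genes were above 0 on all 4 and 12.6% were below.

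**Figure D1:**
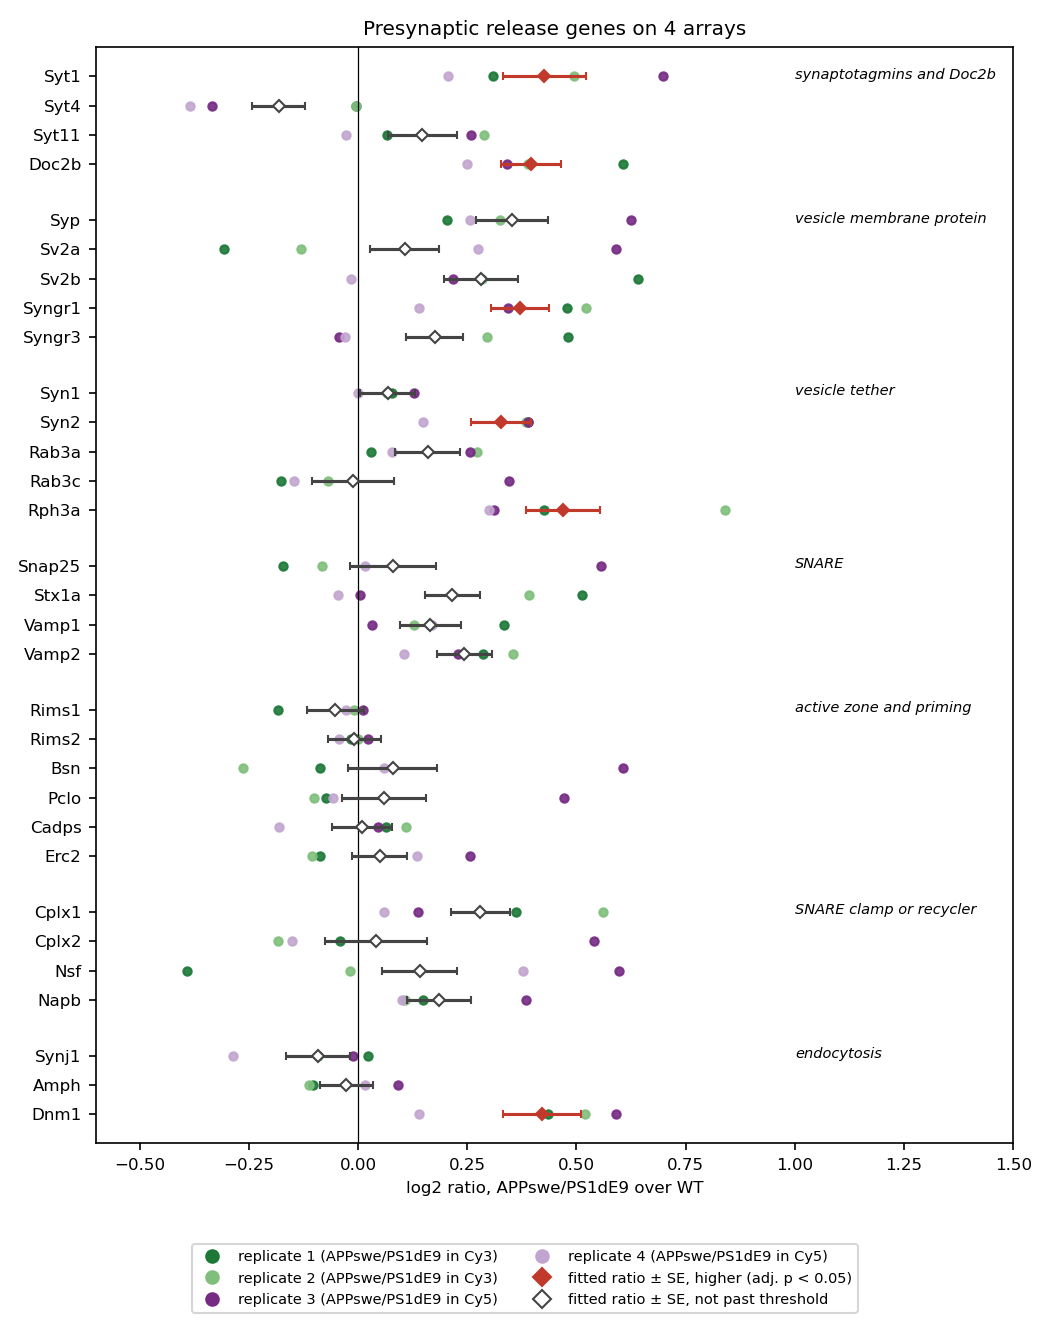
Log2 ratio of APPswe/PS1dE9 over WT (horizontal axis) for the 31 release genes (rows, grouped by role); circles are the 4 arrays, diamonds the fitted ratio with its SE, filled red where adjusted p was under 0.05. The 6 red genes lie above 0 on all 4 arrays, the active zone genes cluster around 0, and replicate 3 is the rightmost circle for 16 of the 31 genes.

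The calls were lost without replicate 3 or replicate 4. With replicate 3 left out none of the 31 genes passed in limma (9 higher at an unadjusted p under 0.05, smallest adjusted p = 0.134), and with replicate 4 left out none did either (14 higher unadjusted, smallest adjusted p = 0.074). On the same-sex arrays, in a fit of genotype alone, none passed (3 higher unadjusted, smallest adjusted p = 0.213), and the median of the release genes there was 0.13. The ratios of the 6 genes in these fits ran from 0.27 for Syn2 without replicate 3 and on the same-sex arrays to 0.57 for Rph3a on the same-sex arrays. Their sign could not turn in these fits, since each of the 6 was above 0 on every array. Calls fell over the whole array as well. Of all kept probes 6.89% were higher and 1.9% lower in the fit of all arrays. Without replicate 3 these shares were 1.86% and 0.0781%, and without replicate 4 they were 1.35% and 0.0186%. The same-sex arrays gave 458 kept probes higher and 7 lower (1.7% and 0.026%).

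Among the synaptotagmins and Doc2b, 2 of 4 measured genes rose. Syt1 stood at log2 ratios of 0.31, 0.49, 0.70 and 0.21 on replicates 1 to 4, with a fitted ratio of 0.43 ± 0.10 (limma, SE, n = 4 arrays, adjusted p = 0.0476). Every array was above 0 and replicate 3 was highest. The log2 signal of Syt1 per culture was 12.57 ± 0.25 in APPswe/PS1dE9 and 12.15 ± 0.22 in WT (SD, n = 4 each), so the cultures of the 2 genotypes overlapped although each array's APPswe/PS1dE9 culture exceeded its WT partner. These signals are per channel after loess and Aquantile normalization and are open to dye bias within an array.

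Doc2b, which responds to lower calcium than Syt1 and acts in spontaneous and asynchronous release, had log2 ratios of 0.61, 0.39, 0.34 and 0.25 on replicates 1 to 4. The fitted ratio was 0.40 ± 0.07 (limma, n = 4 arrays, adjusted p = 0.0212). Its signals were 8.77 to 8.95 in APPswe/PS1dE9 cultures against 8.17 to 8.61 in WT cultures, without overlap. Syt4 and Syt11, atypical synaptotagmins that bind calcium weakly or not at all, did not pass. Syt4 was at 0.00, -0.01, -0.34 and -0.38 on the 4 arrays and fitted at -0.18 ± 0.06 (adjusted p = 0.130), the lowest of the 31 genes, with both Cy5-labelled APPswe/PS1dE9 cultures low and both Cy3-labelled ones at WT level. Syt11 was fitted at 0.15 ± 0.08 (adjusted p = 0.318).

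Of the 5 vesicle membrane protein genes, all had fitted ratios above 0, from 0.11 to 0.37, and Syngr1 passed. Syngr1, synaptogyrin 1, spans the vesicle membrane. Its log2 ratios were 0.48, 0.52, 0.34 and 0.14 on replicates 1 to 4, and the fitted ratio was 0.37 ± 0.07 (limma, n = 4 arrays, adjusted p = 0.0242). All 4 arrays were above 0, with replicate 4 lowest, and the signals did not overlap, at 9.98 to 10.09 in APPswe/PS1dE9 cultures and 9.50 to 9.95 in WT cultures. Its second, dimmer probe was at 0.16 ± 0.06 and did not pass (adjusted p = 0.175).

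Syp, synaptophysin, an abundant protein of the vesicle membrane, missed the threshold. It was at 0.20, 0.32, 0.63 and 0.26 on replicates 1 to 4 and fitted at 0.35 ± 0.08 (limma, n = 4 arrays, adjusted p = 0.0518). Its signals of 11.37 to 11.70 in APPswe/PS1dE9 cultures and 11.07 to 11.30 in WT cultures did not overlap. Syp is X-linked, as is Syn1, and on the same-sex arrays Syp was at 0.29 (adjusted p = 0.445). Syp passed under 4 of the 15 alternative settings that can change a ratio or its test, with the stricter filter on dim probes among them (adjusted p = 0.0376).

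Sv2a and Sv2b are transporter-like vesicle glycoproteins, and neither passed. The ratios of Sv2a were -0.31, -0.13, 0.59 and 0.28 in replicate order, so that its direction followed the dye orientation, and the fitted ratio was 0.11 ± 0.08 (adjusted p = 0.464). Sv2b was fitted at 0.28 ± 0.09 (adjusted p = 0.106), with replicate 1 highest at 0.64 and replicate 4 at -0.02. Syngr3, a synaptogyrin that binds the dopamine transporter, had ratios of 0.48, 0.29, -0.04 and -0.03 in replicate order (fitted 0.18 ± 0.07, adjusted p = 0.169).

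Synapsins tie vesicles to each other and to the cytoskeleton, Rab3 proteins are the small GTPases of the vesicle surface, and Rph3a, rabphilin, binds Rab3 and phospholipids. Of these 5 genes 2 rose. Rph3a had the highest fitted ratio of the 31 genes, 0.47 ± 0.08 (limma, n = 4 arrays, adjusted p = 0.0239), from 0.42, 0.84, 0.31 and 0.30 on replicates 1 to 4. Replicate 2 was highest, and the signals stood at 8.61 to 9.20 in APPswe/PS1dE9 cultures against 8.30 to 8.50 in WT cultures, without overlap.

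Both probes of Syn2 passed. The brightest was at 0.39, 0.38, 0.39 and 0.15 on replicates 1 to 4 (fitted 0.33 ± 0.07, limma, n = 4 arrays, adjusted p = 0.0392), and the dimmer probe was at 0.43, 0.45, 0.45 and 0.28 (fitted 0.40 ± 0.06, adjusted p = 0.0162). Replicates 1 to 3 lay close together on each probe, and replicate 4 was lower on both. The signals of the brightest probe were 12.24 to 12.43 in APPswe/PS1dE9 cultures and 11.85 to 12.23 in WT cultures and did not overlap, by a narrow margin.

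Syn1, the paralogue with the cAMP response element and the RE1 core in the window printed above, did not pass. It was at 0.08, 0.07, 0.13 and 0.00 on replicates 1 to 4 and fitted at 0.07 ± 0.06 (adjusted p = 0.558, 95% interval -0.08 to 0.22). The difference between Syn2 and Syn1 was not tested. Rab3a (0.16 ± 0.07) and Rab3c (-0.01 ± 0.09) did not pass, and the 3 probes of Rab3c ranged from -0.20 to -0.01, each with replicate 3 above 0 and the other arrays below.

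**Figure D2:**
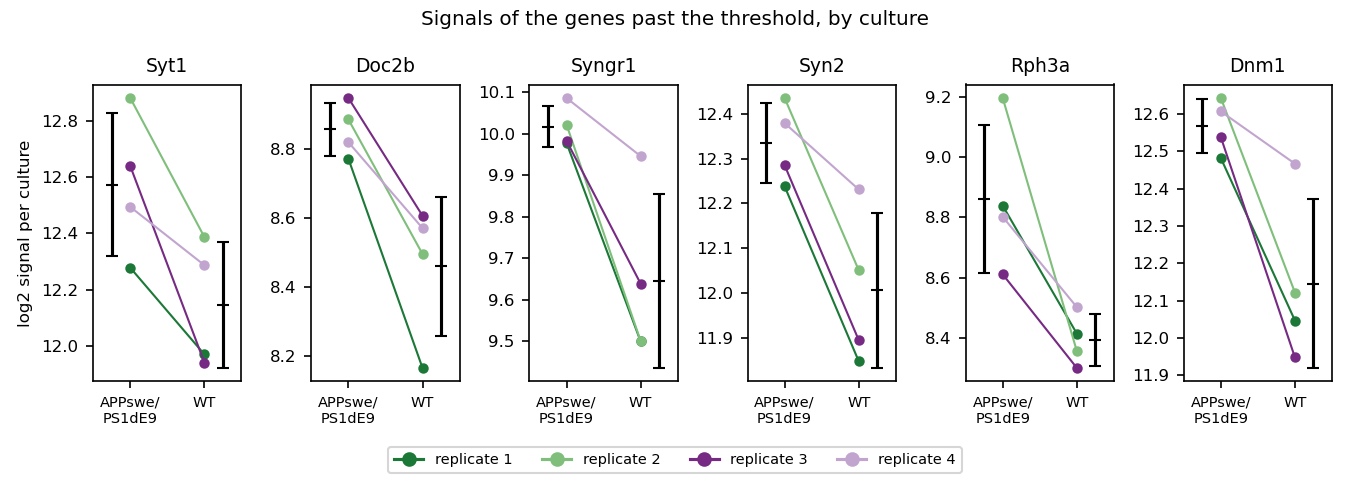
Log2 signal per culture (vertical axis, a scale of its own for each gene) for the 6 genes that passed; lines join the APPswe/PS1dE9 culture (left) to the WT culture (right) of the same array, and black bars give mean and SD of 4 cultures. Every line slopes down to WT, and in all but Syt1 the lowest APPswe/PS1dE9 culture lies above the highest WT culture.

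Per culture, 7 of the 31 genes had every APPswe/PS1dE9 signal above every WT signal and none the opposite, beside 7.19% of kept probes in the first direction and 4.44% in the second. The 7 were Doc2b, Syp, Syngr1, Syn2, Rph3a, Vamp2 and Dnm1. These genes are taken at their brightest probe, whereas the background holds every kept probe, dim and unnamed ones included. The share of named genes at their brightest probe was not counted for this measure.

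The SNARE genes encode the fusion engine itself, with Vamp1 and Vamp2 on the vesicle and Stx1a and Snap25 on the plasma membrane. None of the 4 passed, and their fitted ratios ran from 0.08 to 0.24. Vamp2, synaptobrevin 2, came closest, at 0.29, 0.35, 0.23 and 0.10 on replicates 1 to 4 (fitted 0.24 ± 0.06, adjusted p = 0.0704), with signals of 12.68 to 12.89 in APPswe/PS1dE9 cultures and 12.41 to 12.64 in WT cultures. Stx1a, syntaxin 1A, had ratios of 0.51, 0.39, 0.01 and -0.05 in replicate order, so both arrays with APPswe/PS1dE9 in Cy3 were high and the others near 0 (fitted 0.22 ± 0.06, adjusted p = 0.0946). Snap25 was below 0 in the first orientation and above it in the second, with -0.17, -0.08, 0.56 and 0.02 in replicate order (fitted 0.08 ± 0.10). Vamp1 was fitted at 0.17 ± 0.07 (adjusted p = 0.213).

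Complexins clamp the half-zipped SNARE complex, and Nsf with its adaptor Napb takes spent complexes apart. None of these 4 genes passed by its brightest probe. Cplx1 was at 0.36, 0.56, 0.14 and 0.06 on replicates 1 to 4 (fitted 0.28 ± 0.07, adjusted p = 0.0571). Nsf spread most widely, from -0.39 on replicate 1 to 0.60 on replicate 3 (fitted 0.14 ± 0.09). Napb was above 0 on all 4 arrays with both of its probes, at 0.19 ± 0.07 and 0.18 ± 0.08, and neither probe passed (adjusted p = 0.185 and 0.213).

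The 4 probes of Cplx2 disagreed. The 3 brightest were fitted at 0.04, 0.13 and 0.05, each with replicate 3 above 0.5 and the other arrays between -0.18 and 0.05. The dimmest was at 0.29, 0.41, 0.57 and 0.27 on replicates 1 to 4 and passed (fitted 0.38 ± 0.08, limma, n = 4 arrays, adjusted p = 0.032). All 4 probes carry 1 accession, so the files do not say which transcripts they separate.

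**Figure D3:**
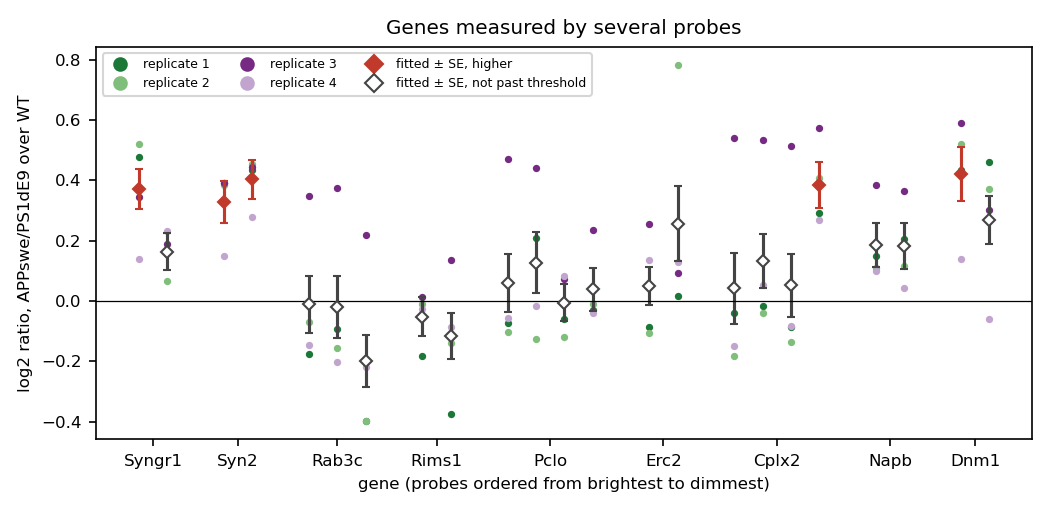
Log2 ratio of APPswe/PS1dE9 over WT (vertical axis) for each kept probe of the 9 release genes measured by several probes, ordered within a gene from brightest to dimmest; small circles are arrays and diamonds the fitted ratio with its SE, filled red where adjusted p was under 0.05. Both Syn2 probes passed, Syngr1 and Dnm1 passed on the brighter probe, and Cplx2 passed on its dimmest.

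The active zone and priming genes had fitted ratios near 0. Rims1 and Rims2 encode scaffolds that link vesicles to calcium channels, Bsn and Pclo the giant proteins bassoon and piccolo, Erc2 a cytomatrix protein that binds them, and Cadps a factor that primes dense-core and synaptic vesicles. None of the 6 measured genes passed, none was above or below 0 on all 4 arrays, and their median fitted ratio was 0.03, with a range of -0.05 to 0.08. Bsn was at -0.09, -0.26, 0.61 and 0.06 on replicates 1 to 4 (fitted 0.08 ± 0.10, 95% interval -0.17 to 0.33). Rims2 was the flattest, between -0.04 and 0.02 on every array (fitted -0.01 ± 0.06, 95% interval -0.16 to 0.14).

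Pclo was measured by 4 probes, fitted between -0.01 and 0.13, and its brightest was at -0.07, -0.10, 0.47 and -0.06 on replicates 1 to 4. The second probe of Erc2 had an isolated value of 0.78 on replicate 2 beside 0.02, 0.09 and 0.13 on the others (fitted 0.26 ± 0.12, adjusted p = 0.275). Whether the active zone genes differed from the vesicle genes as a group was not tested.

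Of the endocytosis genes, Dnm1 rose. It was at 0.43, 0.52, 0.59 and 0.14 on replicates 1 to 4 and fitted at 0.42 ± 0.09 (limma, n = 4 arrays, adjusted p = 0.0389). Every array was above 0, replicate 4 least, and signals of 12.48 to 12.64 in APPswe/PS1dE9 cultures and 11.95 to 12.47 in WT cultures did not overlap. The dimmer Dnm1 probe was at 0.27 ± 0.08 (adjusted p = 0.102), with replicate 4 at -0.06. Amph, amphiphysin, which brings dynamin to the vesicle neck, was at -0.03 ± 0.06, and Synj1, the lipid phosphatase that helps strip the clathrin coat, was at -0.09 ± 0.07, and neither passed. With Feature Extraction's processed signals Amph was at -0.01 and Synj1, a dim gene, at -0.38 (limma, adjusted p = 0.952 and 0.119).

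Replicate 3, where APPswe/PS1dE9 RNA carried Cy5 and the 2 cultures differed in the sex markers, had the highest median of these genes. It gave the highest ratio of the 4 arrays for 16 of the 31 genes, and replicate 4 the lowest for 17. On replicate 3, 28 genes were above 0, against 19, 18 and 18 on replicates 1, 2 and 4. The share of all named genes highest, lowest or above 0 on each array was not counted. The medians of the release genes were 0.07, 0.11, 0.26 and 0.06 on replicates 1 to 4, while those of all named genes lay between 0.00 and 0.04. Of the lists described below, replicate 3 was also highest for other release, postsynaptic, pan-neuronal and astrocyte genes. It was not for neuroendocrine, oligodendrocyte and microglia genes. The postsynaptic medians were 0.03, -0.06, 0.11 and -0.07 on replicates 1 to 4, and the pan-neuronal ones -0.12, -0.21, -0.01 and -0.21. The part of sex or dye in this was not tested.

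Across the 31 genes, the rank correlation of the ratios was 0.84 between replicates 1 and 2 and 0.56 between replicates 3 and 4, which share a dye orientation. Between arrays of opposite orientation it was -0.18 to 0.35, and over all 26898 kept probes the values were 0.54 and 0.46 within and 0.10 to 0.25 between orientations. These are descriptions, since genes on 1 array share its labelling. The mean ratio of the 2 orientations had opposite signs in 12 of the 31 genes (38.7%), beside 40.5% of all named genes. The fit puts such a disagreement into its dye term, which passed the threshold for 0 probes, and leaves it out of the SE.

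Of the other genes of the release pathway, 59 measured of 68 listed, 5 were higher and 1 was lower (8.47% and 1.69%), with a median of 0.02. The vesicular glutamate transporter Slc17a7 (0.58 ± 0.065), the active zone scaffold gene Ppfia4 (0.52 ± 0.07), the endosomal SNARE gene Vamp8 (0.49 ± 0.09) and Syt13 (0.48 ± 0.07) were the 4 highest. Slc17a7 exceeded background in 4 APPswe/PS1dE9 cultures and 3 WT cultures. Synpr, synaptoporin, a relative of synaptophysin, was the gene that fell (-0.50 ± 0.07, adjusted p = 0.0101). It stood at -0.63, -0.69, -0.22 and -0.47 on replicates 1 to 4.

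Of 36 postsynaptic genes, 2 were higher and 1 lower, with a median of 0.02. Grin1, the obligate NMDA receptor subunit, rose (0.34 ± 0.07), and Gabra2, a subunit of the GABA-A receptor, fell (-0.30 ± 0.07). Of 32 pan-neuronal genes outside the release machinery, 4 were higher and 6 lower, with a median of -0.16. Thy1 (0.69 ± 0.07), Scg3 (0.54 ± 0.06) and Eno2 (0.38 ± 0.07) were the highest, and Nefm (-0.80 ± 0.07), Nefl (-0.72 ± 0.06) and Dcx (-0.54 ± 0.11) the lowest. Tubb3 (-0.13 ± 0.08), Map2 (-0.31 ± 0.09) and Stmn2 (0.00 ± 0.07) did not pass.

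Genes of the dense-core secretory pathway, which neurons and neuroendocrine cells use for peptides, were higher in 4 of 10 cases and lower in 1. This list overlaps the pan-neuronal one, since Scg2, Scg3, Chga and Chgb are in both. Scg3, Cpe (0.46 ± 0.06), Pcsk2 (0.41 ± 0.08) and Pcsk1n (0.34 ± 0.07) rose, and Scg2 fell (-0.48 ± 0.07). The summed signal of this list was 130424 to 133781 in APPswe/PS1dE9 cultures and 95317 to 107737 in WT cultures, and the difference between it and the release genes was not tested.

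**Figure D4:**
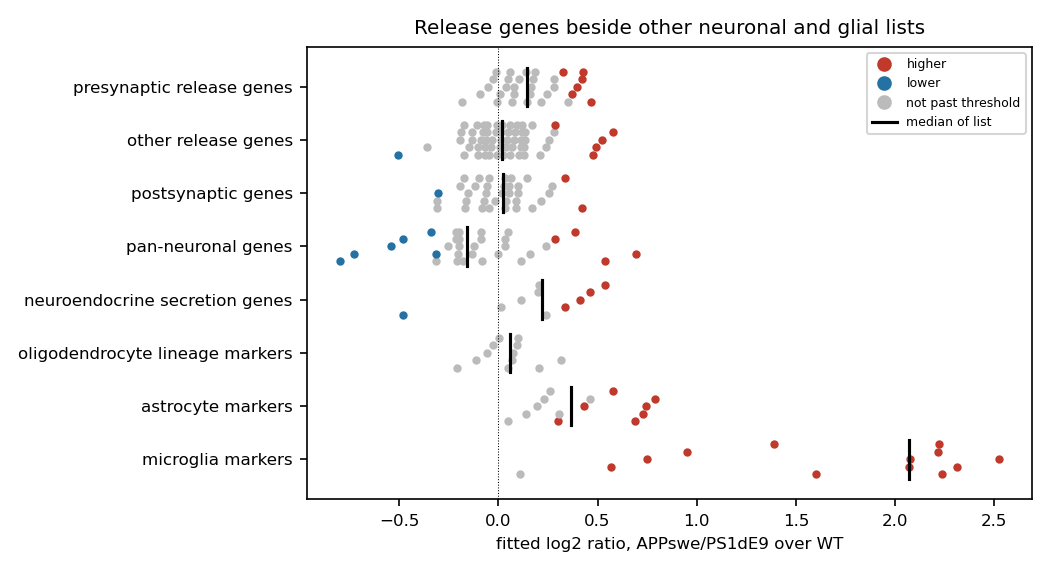
Fitted log2 ratio of APPswe/PS1dE9 over WT (horizontal axis) of each gene (circle) in the release machinery and in 7 other lists (rows); red passed as higher, blue as lower, grey did not pass, and black bars mark medians. The release genes have their median at 0.15, other release genes at 0.02, pan-neuronal genes at -0.16 and microglia markers at 2.07.

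Markers of other cells moved with the same contrast. Of 13 measured microglia markers 12 were higher, with a median of 2.07, and their summed signal was 15169 to 19488 in APPswe/PS1dE9 cultures against 10096 to 12282 in WT cultures. In WT, 6 of the 13 were above background on at most 2 arrays, Tyrobp and Trem2 among them. Of 14 astrocyte markers 7 were higher (median 0.37), with a summed signal of 218356 to 244386 against 149043 to 193272 in WT, and none of 12 oligodendrocyte lineage markers passed by limma. The summed signal of the release genes was 116241 to 144568 in APPswe/PS1dE9 cultures and 112432 to 122450 in WT cultures, so these overlapped. That of the pan-neuronal genes was 329141 to 365164 against 358238 to 409669 in WT. The part of cell composition in the release gene ratios was not tested.

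Over 15 alternative settings each of the 6 stayed above 0, from 0.17 for Syn2 under median centring to 0.57 for Rph3a without replicate 1. Most of these settings could not turn a sign. Fits on fewer arrays average ratios that were all above 0. The filter, the dye term, the prior and choosing the brightest probe before the fit left the ratio itself unchanged. Doc2b and Rph3a each passed under 9 of the 15, Syngr1 under 8, Syn2 and Dnm1 under 7 and Syt1 under 6. Aquantile scaling, which leaves the ratios within an array as they are, is not counted. Processed signals and the authors' deposited value table are near copies, with release gene medians of 0.0866 and 0.0867, but are counted as 2 settings. With Feature Extraction's own processed signals none of the 31 genes passed in limma (9 higher and 4 lower at an unadjusted p under 0.05), and without the filter on dim probes none did either (13 higher and 1 lower unadjusted).

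**Figure D5:**
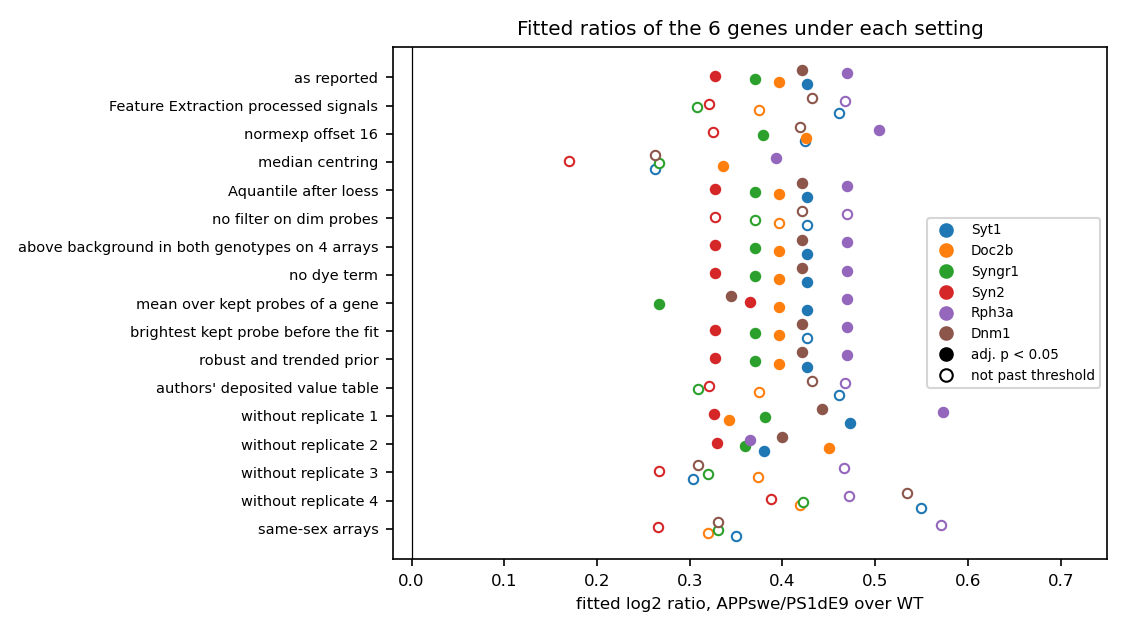
Fitted log2 ratio (horizontal axis) of the 6 genes under the reported setting and 16 alternatives (rows); filled circles had adjusted p under 0.05 and open circles did not. The Aquantile row equals the reported one by construction. The rows of processed signals and of the deposited value table hold nearly the same values. Every circle lies to the right of 0, which was fixed in advance in the rows that leave arrays out. In all, 6 rows hold open circles alone, namely processed signals, no filter on dim probes, the authors' deposited value table, without replicate 3, without replicate 4 and the same-sex arrays.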

How the data were processed

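RNA of 4 APPswe/PS1dE9 and 4 WT cultures was compared on 4 two-colour arrays. Per the file headers, the authors deposited Feature Extraction 11.0.1.1 files with median spot and background intensity per channel, processed intensity (background-subtracted, dye-normalized) and its log10 ratio of Cy5 over Cy3, on 1 slide and scan with mm9 annotation. The authors' deposited value table holds log2 ratios of 29350 spots, and its slopes of -1, -1, 1 and 1 on the scanner log2 Cy5/Cy3 show that it runs APPswe/PS1dE9 over WT, not centred (medians -0.0797, -0.155, -0.0373 and -0.0378).

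Median intensities were background-corrected by normexp (offset 50) and normalized by loess within arrays in limma 3.58.1 (R 4.3.3), with control and outlier spots at weight 0 and then left out. Replicate spots were averaged per probe, and a probe entered the fit if well above background in 1 genotype's channel on at least 3 of 4 arrays (26898 of 55681). Each fitted log2 ratio (APPswe/PS1dE9 over WT, ± SE) came from lmFit and eBayes with genotype and dye coefficients (2 residual and 4.16 prior degrees of freedom), and p-values are two-sided, adjusted over all kept probes. For 80 kept probes at least 1 array had no value. Names come from a RefSeq table (GRCm38.p6, 27509 probes matched), used for names and promoter windows alone. The offset of 50 draws ratios of dim spots towards 0. With 4 arrays, precision is set by their number.

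The release genes, all lists and the promoter motifs were chosen with earlier results of these data known. All release genes are accounted for, with every array given for genes that passed and ranges or the largest ratios of each role for the rest. In the other lists the highest and lowest called genes are named, except 1 that is not reported here. Alternatives covered background, normalization, filter, dye term, probe choice, prior, source of values, each array left out and the same-sex arrays.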

Additional observations from a re-analysis of the deposited data

Results flagged for a closer look

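For 7 of 45 release probes 1 array lay far from the other 3. The measure was the gap to the nearest array over the whole range, and these 7 were past the 95% critical value of Dixon's test. The share of all kept probes past this value was not counted, so the count has no background beside it. Dixon's test takes the arrays as independent, whereas the ratios grouped by dye orientation, and some of the probes share a gene. Replicate 3 was the far, high array for 2 probes of Cplx2 (0.515 and 0.532, with the other 3 arrays at most 0.052) and 2 of Pclo (0.47 and 0.235, with the other 3 below 0). Replicate 4 was the far, low array for both probes of Syn2 (0.148 on the brightest, where the others were 0.384 to 0.39, and 0.278 on the dimmer). Replicate 2 was the far, high array for the dimmer Erc2 probe (0.783, with the next at 0.13). Over all 45 probes, replicate 3 was the array farthest from its neighbour in 19, always on the high side.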

How the results depend on the processing

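The fit is itself paired, since each ratio sets an APPswe/PS1dE9 culture against the WT culture of its array, so no further replicate block was fitted. No release gene passed as lower under any of the 15 alternatives that can change a ratio or its test (Aquantile scaling cannot). The 6 genes called higher became 0 with processed signals, the deposited value table, no filter on dim probes or the same-sex arrays. These settings called 2.82%, 2.79%, 1.89% and 1.7% of all probes higher, against 6.89% in the reported fit. The release genes called higher were 2 with median centring (5.8% of all kept probes) and 3 with an offset of 16 (6.07%). With the mean over the probes of a gene they were 11, where 14.5% of 13669 genes were called higher. The reported fit at the brightest probe called 10.2% of named genes higher. With 1 array left out they were 0 to 8, where 1.35% to 10.5% of all kept probes were called higher. The median of the release genes turned from 0.15 to -0.017 under median centring, which put all kept probes at -0.07. Over all probes, the 1852 higher and 512 lower became 759 and 226 with processed signals, 752 and 216 with the deposited value table, 1050 and 98 with no filter, and 458 and 7 on the same-sex arrays. Median centring gave 1675 lower and the fit without a dye term 301 lower. Leaving out 1 array gave 363 to 2835 higher and 5 to 721 lower. More probes and release genes were called higher without replicate 1 or 2, and fewer without replicate 3 or 4. No filter raises the number of tests, and the cause of the other changes was not tested. Signal over background limited Unc13a, which was not tested.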
